A study of Mus musculus with 12 samples.

Results

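The Hippo pathway and YAP target genes examined here were 10 genes of the 54532 in the count table, chosen by name: Yap1, Wwtr1, Tead1, Lats2, Amotl1, Amotl2, Ankrd1, Axl, Crim1 and Nuak2. Each matched 1 row, and all 10 rows were read in the 12 libraries. The libraries came from liver and subcutaneous fat of male mice injected at 10 weeks of age through the tail vein with an adeno-associated virus of serotype 8. In the hHKDC1 OE group the virus carried full-length human HKDC1, a hexokinase domain-containing protein, behind the thyroxine-binding globulin promoter (TBGp), which is active in hepatocytes, whereas the null group received the virus with the promoter alone. Both groups ate a low-fat diet for 16 weeks after the injection, and their strain is not given in the sources used here. Each tissue had 3 null and 3 hHKDC1 OE libraries. The titles and the treatment label give all 6 hHKDC1 OE libraries as overexpression, but the descriptions call 4 of them (replicates 2 and 3 of each tissue) knockouts. The human transgene has no row in the table, and mouse Hkdc1 had 0 to 8 counts per library, so the labels could not be checked on the transgene.

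Hippo signaling is a kinase cascade in which the MST kinases activate the LATS kinases, and these phosphorylate YAP and its paralog TAZ, the product of Wwtr1, and keep them in the cytoplasm. Unphosphorylated YAP and TAZ enter the nucleus and bind the TEAD proteins, which hold them on DNA and switch on target genes. In liver the pathway is known for the control of organ size, and in fat TAZ is known as a restraint on adipocyte differentiation. RNA levels report the transcripts of the components and targets, not the amounts of their proteins. Because the cascade acts by phosphorylation, RNA levels do not report the activity of the kinases either.

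TEAD proteins recognize the letters GGAATG. RefSeq start-site windows of 300 bases (250 before the start and 50 from it, GRCm38.p6) were searched for them on both strands, where the reverse strand reads CATTCC. Windows were found for 8 of the 10 genes, and not for Tead1 and Nuak2. Of these 8 genes, 7 had at least 1 match, compared with 16.6% of the 27025 genes and 14.7% of the 32851 windows in the RefSeq table. Ankrd1 held 2 matches, starting 210 and 123 bases before the start, and Amotl1 held none. The 250 bases before the start are shown for 4 genes, because Wwtr1, Axl and Crim1 were all higher in fat than in liver while Yap1, with the same letters, was not. Capitals mark the match, and each sequence is read 5′ to 3′ on the strand of the gene.
Yap1, chr9:8004597-8004846, minus strand: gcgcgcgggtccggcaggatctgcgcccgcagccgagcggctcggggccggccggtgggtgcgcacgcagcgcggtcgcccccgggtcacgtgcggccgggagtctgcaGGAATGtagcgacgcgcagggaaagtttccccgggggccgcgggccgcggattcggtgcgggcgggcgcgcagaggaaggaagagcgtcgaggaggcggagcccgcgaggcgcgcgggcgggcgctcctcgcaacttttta
Wwtr1, chr3:57575911-57576160, minus strand: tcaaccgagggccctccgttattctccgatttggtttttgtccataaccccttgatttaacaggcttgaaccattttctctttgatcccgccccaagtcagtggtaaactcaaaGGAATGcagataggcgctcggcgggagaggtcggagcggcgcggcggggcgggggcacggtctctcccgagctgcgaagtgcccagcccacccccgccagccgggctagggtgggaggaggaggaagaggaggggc
Axl, chr7:25788734-25788983, minus strand: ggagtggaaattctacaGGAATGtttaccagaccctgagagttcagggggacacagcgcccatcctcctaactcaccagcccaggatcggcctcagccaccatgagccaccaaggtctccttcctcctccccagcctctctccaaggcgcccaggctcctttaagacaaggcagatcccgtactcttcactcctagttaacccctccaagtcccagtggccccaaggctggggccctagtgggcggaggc
Crim1, chr17:78199998-78200247, plus strand: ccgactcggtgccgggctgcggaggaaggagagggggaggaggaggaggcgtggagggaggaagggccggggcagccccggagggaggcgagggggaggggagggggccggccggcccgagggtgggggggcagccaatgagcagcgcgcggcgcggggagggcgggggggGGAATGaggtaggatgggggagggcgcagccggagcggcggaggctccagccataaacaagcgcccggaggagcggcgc
The match began 141 bases before the start in Yap1, 136 in Wwtr1, 233 in Axl and 79 in Crim1. A match of these 6 letters is a description of the sequence, and binding was not measured. Of the other Hippo pathway genes, 8 of 22 with a window held a match (36.4%), and of the other YAP target genes 1 of 9 (11.1%).

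Total counts ranged from 15496019 to 19954971 per library. Hepatocyte markers (8 of 8 present) summed to 68111 to 115007 CPM (counts scaled to a common library size by trimmed mean of M-values, TMM) in the liver libraries, and adipocyte markers (6 of 6 present) to 13710 to 22768 CPM in the fat libraries. The fat library of hHKDC1 OE replicate 2 stood apart from its group, with a root mean square log2 difference of 0.741 to the other two libraries, compared with 0.367 to 0.558 for the other 11 libraries, so the fat results are given with and without it. The fat libraries came from 3 mice a group. For liver the number of mice is not given in the sources used here, and p-values there measure only the spread between libraries. The mean chi-square per gene between libraries of a group, scaled to their totals, was 21.8 to 136 in liver and 27.2 to 173 in fat. Whether the liver spread is technical was not tested. Fewer cells of a type and less RNA per cell cannot be told apart in these bulk libraries.

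Levels between genes were compared per length, in the FPKM that the authors deposited (fragments scaled by gene length and by the size factors of DESeq2, not by total counts). In null liver Amotl2 (9.45 ± 0.98 FPKM, SD, n = 3) and Yap1 (9.07 ± 1.25 FPKM) were highest and their libraries overlapped. Wwtr1 followed at 6.12 ± 0.98 FPKM, with no overlap on either side. Crim1 (4.21 ± 0.75 FPKM), Nuak2 (3.96 ± 0.96 FPKM), Axl (3.34 ± 0.97 FPKM) and Lats2 (2.26 to 2.89 FPKM) came next, and each overlapped its neighbor in that order. Amotl1 (1.22 ± 0.055 FPKM), Tead1 (0.857 ± 0.18 FPKM) and Ankrd1 (0.178 ± 0.071 FPKM) were lowest, and their libraries did not overlap. In null fat the order differed, with Amotl2 at 38.7 ± 5.0 FPKM, Wwtr1 at 31.5 ± 2.1 FPKM and Amotl1 at 25.7 ± 3.5 FPKM, none of them overlapping. Crim1 (15.9 ± 1.4 FPKM), Axl (15.1 ± 4.0 FPKM) and Tead1 (11.8 ± 2.0 FPKM) came next, where Crim1 and Axl overlapped, as did Axl and Tead1. Yap1 was seventh at 8.62 ± 0.87 FPKM, above Lats2 at 4.62 ± 0.33 FPKM. Nuak2 (0.767 ± 0.21 FPKM) and Ankrd1 (0.395 ± 0.27 FPKM) were lowest and overlapped.

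**Figure D1:**
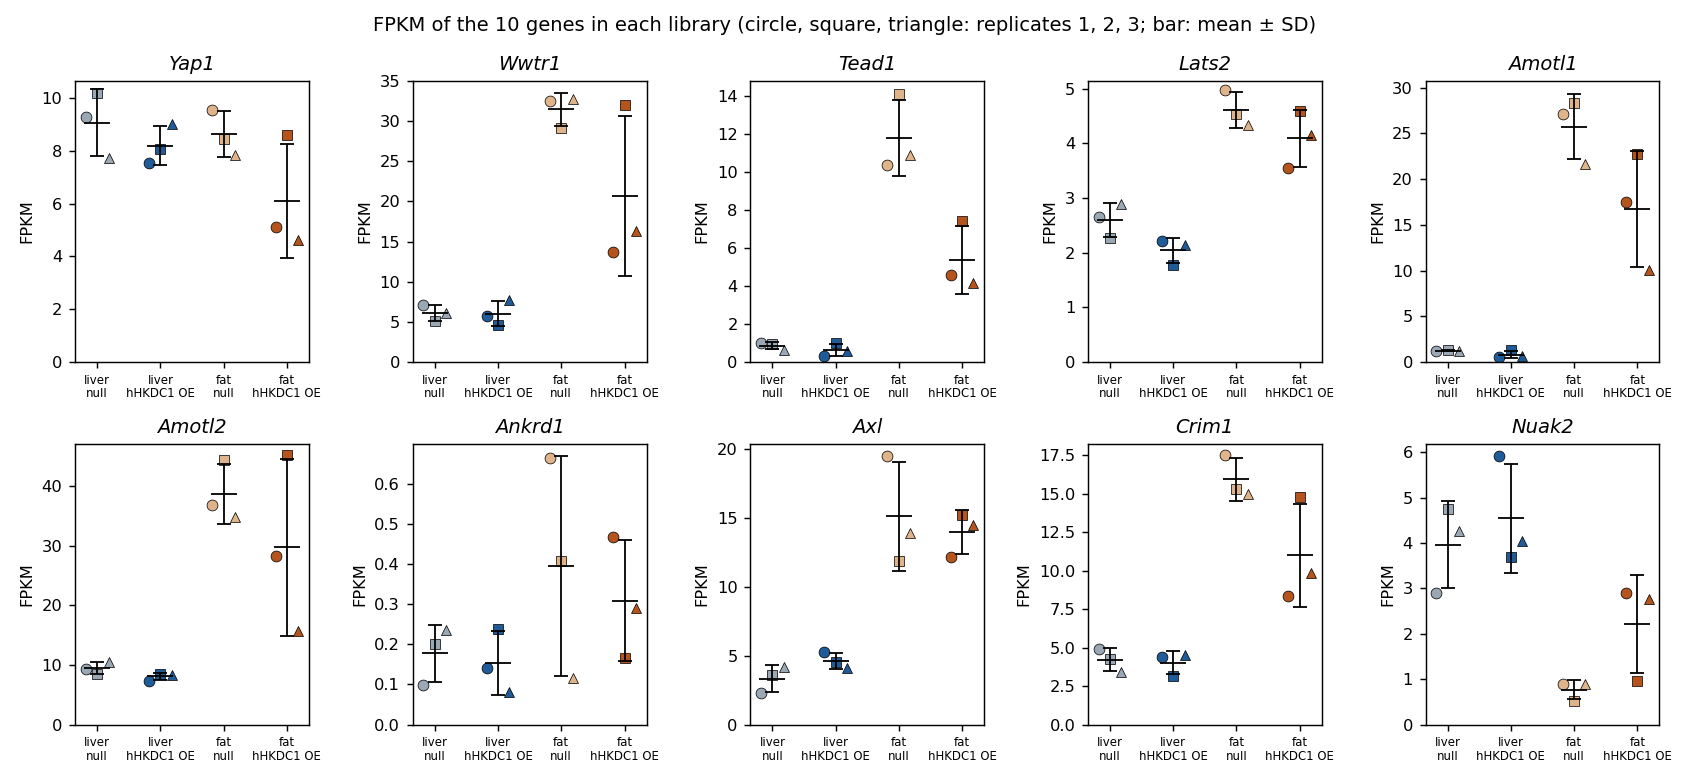
FPKM of the 10 genes (vertical axes, linear from 0) in null and hHKDC1 OE liver and fat; circles, squares and triangles are replicates 1, 2 and 3, and the bar is the mean ± SD of 3 libraries. Wwtr1, Tead1, Amotl1, Amotl2, Axl and Crim1 were several times higher in null fat than in null liver, Nuak2 was lower, and Yap1 was at 9.07 FPKM in null liver and 8.62 FPKM in null fat.

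The comparison of null fat with null liver asked how the pathway genes are distributed over the tissues without the transgene. Of the 9 genes tested, 7 were higher in fat, Nuak2 was lower and Yap1 did not pass (edgeR's quasi-likelihood test, Benjamini-Hochberg adjusted p under 0.05 over 15259 genes). Among all genes 33.8% were higher and 30.5% lower in fat. The median log2 fold change was 1.98 over the 9 genes and 0.09 over all genes tested.

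The effectors behaved differently from each other. Yap1 (ENSMUSG00000053110, chr9:7931999-8004596), the coactivator itself, had 9.29, 10.2 and 7.72 FPKM in null liver and 9.56, 8.46 and 7.84 FPKM in null fat. These ranges overlapped, and the log2 fold change was -0.13 (95% interval -0.47 to 0.22, adjusted p = 0.490). Scaling by library size alone moved the median of all genes to 0.98 and Yap1 to 0.76 (adjusted p = 0.00186), so that Yap1 was then below the median gene. Over all alternatives its adjusted p ranged from 0.00186 to 0.918. Wwtr1 (ENSMUSG00000027803, chr3:57455649-57575910) had 7.10, 5.15 and 6.11 FPKM in null liver and 32.6, 29.1 and 32.8 FPKM in null fat, with no overlap. It was 4.96-fold higher in fat (log2 2.31 ± 0.15 SE, adjusted p = 1.03e-05). The ratio of Yap1 to Wwtr1 FPKM was accordingly 1.26 to 1.98 in null liver and 0.239 to 0.294 in null fat, and 1.17 to 1.77 and 0.268 to 0.376 in the hHKDC1 OE libraries of the same tissues.

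Tead1 (ENSMUSG00000055320, chr7:112679318-112906807), the DNA-binding partner, had 0.982, 0.942 and 0.648 FPKM in null liver and 10.4, 14.1 and 10.9 FPKM in null fat. Its log2 fold change was 3.73 ± 0.22, or 13.3-fold (adjusted p = 6.79e-06). The TEAD genes differed in composition between the tissues: Tead1 supplied 24.7% to 36.4% of the summed FPKM of Tead1 to Tead4 in null liver and 75.1% to 80.8% in null fat. Tead3 supplied 42.5% to 64.1% in null liver and 6.57% to 7.78% in null fat. The summed TEAD FPKM was 2.62 to 2.73 in null liver and 13.5 to 17.5 in null fat.

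**Figure D2:**
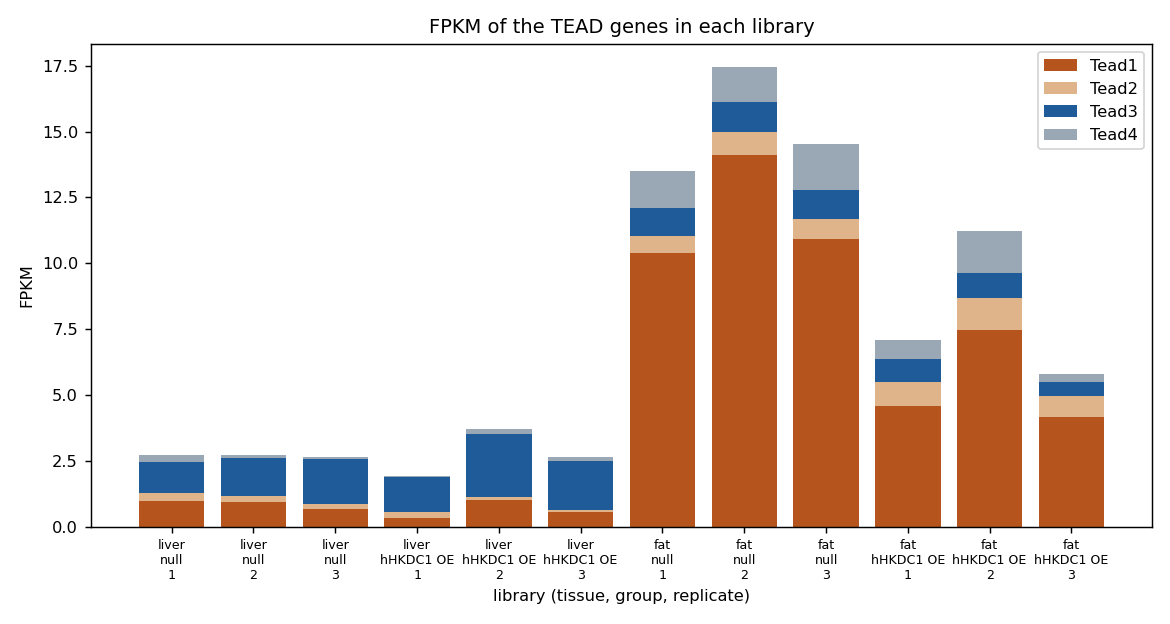
FPKM of Tead1, Tead2, Tead3 and Tead4 stacked for each of the 12 libraries (vertical axis, linear from 0). Tead1 made up 64.6% to 80.8% of the bar in the fat libraries and 16.9% to 36.4% in the liver libraries, where Tead3 was the largest part.

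Among the regulators, Lats2 (ENSMUSG00000021959, chr14:57689662-57758388), a kinase that phosphorylates YAP and TAZ and is itself a YAP target, differed least of those that passed. It was 1.71-fold higher in null fat (log2 0.77 ± 0.15, adjusted p = 0.00232). In GENCODE vM21, 42.4% of its exonic bases are shared with the readthrough gene Gm49361 on the same strand, which had 0 counts in 12 of 12 libraries, so its counts are uncertain. The angiomotin genes Amotl1 (ENSMUSG00000013076, chr9:14541966-14645056) and Amotl2 (ENSMUSG00000032531, chr9:102716672-102733418) encode junction proteins that hold YAP outside the nucleus. Amotl1 rose from 1.15 to 1.26 FPKM in null liver to 21.7 to 28.4 FPKM in null fat, a 20.4-fold difference (log2 4.35 ± 0.18, adjusted p = 2.1e-06). Amotl2 was 3.95-fold higher in fat (log2 1.98 ± 0.17, adjusted p = 3.4e-05).

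Of the targets, Axl (ENSMUSG00000002602, chr7:25757273-25788705), a receptor tyrosine kinase, was 4.34-fold higher in null fat (log2 2.12 ± 0.27, adjusted p = 0.000271). Crim1 (ENSMUSG00000024074, chr17:78200248-78376592), a transmembrane protein that binds BMP ligands, was 3.65-fold higher (log2 1.87 ± 0.16, adjusted p = 3.32e-05). Nuak2 (ENSMUSG00000009772, chr1:132316126-132333488), an AMPK-related kinase, ran the other way, with 2.89, 4.75 and 4.25 FPKM in null liver and 0.884, 0.528 and 0.889 FPKM in null fat. It was 5.37-fold lower in fat (log2 -2.43 ± 0.30, adjusted p = 0.000226). The share of total counts taken by hepatocyte markers in null fat was 3.09% to 8.30% of the mean share in null liver (1.69% to 2.62% in hHKDC1 OE fat), and the part of these transcripts in the fat values was not tested. Ankrd1 (ENSMUSG00000024803, chr19:36111965-36119844), a muscle ankyrin repeat protein and a standard YAP readout, had only 2, 4 and 5 counts in null liver and was not tested there.

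**Figure D3:**
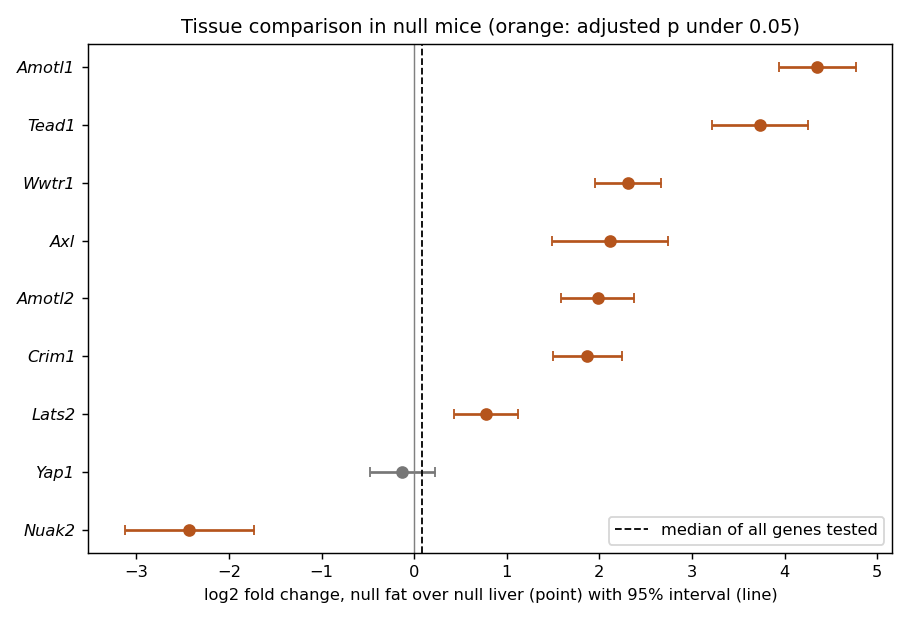
Log2 fold change of null fat over null liver (horizontal axis) for the 9 genes tested, with 95% intervals; the dashed line is the median of all genes tested, 0.09. Amotl1 (4.35) and Tead1 (3.73) lie farthest to the right, Nuak2 (-2.43) lies to the left, and the interval of Yap1 spans 0.

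The wider pathway was read from 28 other Hippo pathway genes and 15 other YAP target genes. Of 28 pathway genes tested between null tissues, 18 were higher in fat, 4 were lower and 6 did not pass, with a median log2 fold change of 1.07, beside 33.8% higher and 30.5% lower among all genes tested. The largest called differences were Vgll3, a TEAD cofactor, at 5.84 ± 0.45, Wwc1, the upstream scaffold KIBRA, at -5.19 ± 0.47, and Ptpn14, a phosphatase that restrains YAP, at 4.49 ± 0.18. Of 14 target genes tested, 10 were higher in fat and 1 was lower, with a median of 2.56, read against the same shares of all genes. Ccdc80, a secreted matrix protein, differed by 7.11 ± 0.22 and Rbms3, an RNA-binding protein, by 3.04 ± 0.22. Fjx1 had 0 counts in the null liver libraries and 34, 52 and 42 in null fat, which makes it at least 20.9-fold higher with TMM scaling, against a floor of 3 counts over the group (38.5-fold relative to total counts).

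The comparison of hHKDC1 OE with null liver asked whether hepatocyte expression of the transgene changed the pathway in the tissue that makes it. Of the 10 genes, 9 were tested and 0 passed in either direction, as did 0% of all 13351 genes tested in each direction. At an unadjusted p under 0.05 the count of these genes was 0, compared with 3.89% of all genes higher and 3.05% lower. DESeq2 also called 0 of the 10 (0.352% of all genes higher and 0.384% lower). The log2 fold changes ran from -0.58 to 0.49 with a median of -0.11, against 0.01 over all genes.

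Yap1 had 61.4, 69.8 and 53.4 normalized CPM in null liver and 51.3, 57.0 and 62.4 CPM in hHKDC1 OE liver. The groups overlapped, and the log2 fold change was -0.11 with a 95% interval of -0.45 to 0.23 (adjusted p = 0.928). Wwtr1 differed by 0.01, with an interval of -0.46 to 0.48. Lats2 had 13.2, 11.7 and 15.1 CPM in null liver and 11.4, 9.47 and 11.1 CPM in hHKDC1 OE liver, so that all hHKDC1 OE libraries were below all null libraries. No overlap in that direction was seen in 6.18% of all genes, and in the other direction in 6.31%, and Lats2 did not pass (log2 -0.32 ± 0.18, adjusted p = 0.788).

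Axl had 8.15, 13.4 and 15.6 CPM in null liver and 19.4, 17.4 and 15.5 CPM in hHKDC1 OE liver, overlapping at replicate 3 of both groups (log2 0.49 ± 0.24, adjusted p = 0.752). Tead1 and Amotl1 were uneven within the hHKDC1 OE group. Tead1 had 3.26 and 5.65 CPM in replicates 1 and 3 but 10.3 CPM in replicate 2, against 6.57 to 9.51 CPM in null liver. Amotl1 had 3.81 and 4.53 CPM in replicates 1 and 3 and 9.63 CPM in replicate 2, against 8.68 to 9.38 CPM in null liver. Neither passed, with log2 fold changes of -0.41 ± 0.37 and -0.58 ± 0.33. Without hHKDC1 OE replicate 2 they were -0.93 (adjusted p = 0.278) and -1.10 (adjusted p = 0.0755), and without replicate 1 -0.10 and -0.34 (edgeR's quasi-likelihood test), so that neither passed. Summed markers of endothelium (5 of 5 present) were also highest in replicate 2. They were at 34.6, 53.7 and 30.5 CPM in hHKDC1 OE replicates 1, 2 and 3 and 50.8 to 68.0 CPM in null liver. Those of sinusoidal endothelium (71.1, 132 and 72.6 CPM), stellate cells (77.6, 91.9 and 82.5 CPM) and smooth muscle (2.64, 8.83 and 3.36 CPM) were highest there too. Kupffer cell and macrophage markers were highest in replicate 1. The part of any of these cells in the Tead1 and Amotl1 values was not tested. Summed hepatocyte markers were at 110206 to 115007 CPM in null liver and at 89473, 82233 and 68111 CPM in hHKDC1 OE replicates 1, 2 and 3, all below the null libraries, and their part in the liver values was not tested either. Amotl2, Crim1 and Nuak2 had log2 fold changes of -0.19, -0.03 and 0.22, with overlapping libraries.

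Of the other pathway genes, 26 were tested in liver and 0 passed. The smallest unadjusted p-values were those of the protocadherin Fat4 (log2 -1.41 ± 0.48, adjusted p = 0.606) and the upstream regulator Nf2 (0.33 ± 0.18). Fat4 was low, with 20, 23 and 23 counts in null liver and 7, 12 and 9 in hHKDC1 OE liver. Of 12 other target genes tested 0 passed. Gadd45a, a stress-response gene, had 1.61, 2.08 and 2.29 CPM in null liver and 3.51, 5.43 and 8.27 CPM in hHKDC1 OE liver (log2 1.52 ± 0.36, adjusted p = 0.436). F3, which encodes tissue factor, had a log2 fold change of 0.96 ± 0.28 and Cyr61, a matricellular YAP target, of 0.58 ± 0.29, and all 3 libraries of the hHKDC1 OE group were above the null group for both, as for Gadd45a. These were 3 of the 12 targets, with 0 of 12 in the other direction, beside 6.31% and 6.18% of all genes. Of the 12 log2 fold changes 5 were positive and 7 negative, with a median of -0.11. Ctgf had 10.5, 10.9 and 9.55 CPM in null liver and 4.12, 10.7 and 6.72 CPM in hHKDC1 OE liver (log2 -0.51 ± 0.31), and Igfbp3, an IGF-binding protein, had a log2 fold change of -0.38 ± 0.20 (adjusted p = 0.772); both were named here after their values were seen. Summed Kupffer cell markers (5 of 5 present) were at 81.1 to 149.7 CPM in null liver. In hHKDC1 OE replicates 1, 2 and 3 they were at 320.3, 150.4 and 148.2 CPM. Gadd45a (8.27 CPM) and F3 (6.56 CPM) were highest in replicate 3 and Cyr61 (12.7 CPM) in replicate 2. The part of these cells in the values was not tested.

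**Figure D4:**
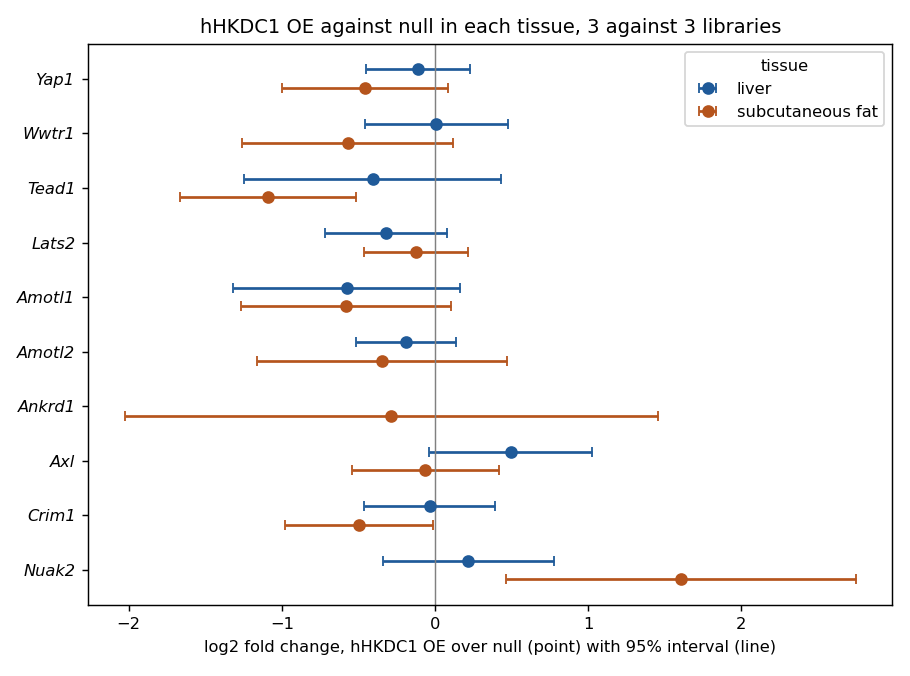
Log2 fold change of hHKDC1 OE over null (horizontal axis) with 95% intervals in liver (blue, 9 genes) and fat (orange, 10 genes), 3 against 3 libraries each. The liver values lie between -0.58 and 0.49, and in fat Tead1 (-1.09) and Nuak2 (1.60) lie farthest from 0.

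The comparison of hHKDC1 OE with null fat asked about a tissue that the promoter does not target. All 10 genes were tested and 0 passed, as did 0% of 16380 genes in each direction. At an unadjusted p under 0.05 there were 1 higher (Nuak2) and 2 lower (Tead1 and Crim1), compared with 11.3% of all genes higher and 6.39% lower. DESeq2 called Nuak2 higher and Tead1 lower, beside 6.46% of all genes higher and 0.995% lower. Of the 10 log2 fold changes 9 were negative, with a median of -0.40 against -0.05 over all genes.

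Tead1 had 190, 264 and 195 normalized CPM in null fat and 89.2, 134 and 80.8 CPM in hHKDC1 OE fat. All 3 hHKDC1 OE libraries were below the null libraries, as was the case for 10.2% of all genes. The log2 fold change was -1.09 ± 0.24 in edgeR's quasi-likelihood test (adjusted p = 0.133) and -1.07 in DESeq2 (adjusted p = 0.00527). Crim1 had 142, 126 and 118 CPM in null fat and 72.2, 118 and 84.8 CPM in hHKDC1 OE fat, where replicate 2 lay just under the lowest null library (log2 -0.49 ± 0.21, adjusted p = 0.275).

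Nuak2 was the 1 gene with higher values. It had 4.68, 2.85 and 4.60 CPM in null fat and 16.4, 5.03 and 15.6 CPM in hHKDC1 OE fat, with all hHKDC1 OE libraries above the null libraries, as in 12.5% of all genes. The log2 fold change was 1.60 ± 0.48, or 3.04-fold (adjusted p = 0.174), and 1.62 in DESeq2 (adjusted p = 0.0159). Replicates 1 and 3 were far above the null range and replicate 2 was just above it.

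Yap1 had 120, 108 and 95.8 CPM in null fat and 68.3, 106 and 61.2 CPM in hHKDC1 OE fat. Replicate 2 lay within the null range and the others below it (log2 -0.46 ± 0.23, adjusted p = 0.342). Wwtr1 showed the same division, with 210, 192 and 207 CPM in null fat and 93.8, 204 and 112 CPM in hHKDC1 OE fat (log2 -0.57 ± 0.29, adjusted p = 0.349). Amotl1 had 370, 393 and 288 CPM in null fat and 253, 304 and 145 CPM in hHKDC1 OE fat. Amotl2 had 313, 384 and 290 CPM and 256, 379 and 141 CPM. For both, replicate 2 was inside the null range, and their log2 fold changes were -0.58 ± 0.29 and -0.35 ± 0.35. The groups overlapped for Lats2 (log2 -0.12 ± 0.14) and Axl (-0.06 ± 0.20), although Lats2 in hHKDC1 OE replicate 1 (35.5 CPM) lay below the null range of 39.9 to 46.9 CPM.

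Counted by library, 7 of the 10 genes in hHKDC1 OE replicate 1 and 6 in replicate 3 were below all null fat libraries, compared with 34.7% and 36.3% of all genes tested. In replicate 2 the count was 2, compared with 27.2% of all genes. Without replicate 2 of the hHKDC1 OE fat group, 5 of the 10 genes passed edgeR's quasi-likelihood test, and the background was 11.4% of genes higher and 7.53% lower. Yap1 (log2 -0.75, adjusted p = 0.0191), Wwtr1 (-0.99, adjusted p = 0.00665), Crim1 (-0.73, adjusted p = 0.0205) and Tead1 (-1.36, adjusted p = 0.00556) were then lower, and Nuak2 (1.97, adjusted p = 0.00645) was higher. Over all alternatives the adjusted p ranged from 0.00527 to 0.406 for Tead1, 0.00645 to 0.471 for Nuak2, 0.0191 to 0.645 for Yap1, 0.00665 to 0.667 for Wwtr1 and 0.0205 to 0.572 for Crim1, each with its direction kept.

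Some cell type markers divided the fat libraries in the same way and others did not. B cell markers (5 of 5 present) summed to 1.49 to 2.57 CPM in null fat and to 708, 39.0 and 503 CPM in hHKDC1 OE replicates 1, 2 and 3. T cell markers (5 of 5) summed to 2.91 to 7.76 CPM in null fat and to 298, 21.0 and 358 CPM in the same replicates. Macrophage markers (4 of 4) were at 162 to 351 CPM in null fat and 829, 513 and 1060 CPM, with replicate 2 lowest of the 3 but also above the null range, and smooth muscle markers (4 of 4) at 306 to 324 CPM in null fat and 118, 328 and 79.7 CPM. Endothelial markers (5 of 5) were at 726 to 829 CPM in null fat and 646, 954 and 633 CPM, with replicates 1 and 3 below and replicate 2 above the null range. Adipose fibroblast markers (7 of 7) were at 2231 to 3624 CPM in null fat and 1260, 4107 and 2519 CPM, with replicate 1 below, replicate 2 above and replicate 3 within the null range. The 2 libraries with the most lymphocyte transcripts were those with the highest Nuak2 and the lowest Yap1, Wwtr1, Crim1 and Tead1, and the part of any of these cells in the values was not tested. In hepatocyte markers (8 of 8) replicates 1, 2 and 3 were all below the null range, at 2712, 1735 and 2485 CPM against 3644 to 9043 CPM in null fat. The same held for keratinocyte and mammary epithelial markers (5 of 5), at 10.28, 16.13 and 10.02 CPM against 19.0 to 116 CPM. Adipocyte markers (6 of 6) ranged from 17230 to 22768 CPM in null fat and from 13710 to 22427 CPM in hHKDC1 OE fat.

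**Figure D5:**
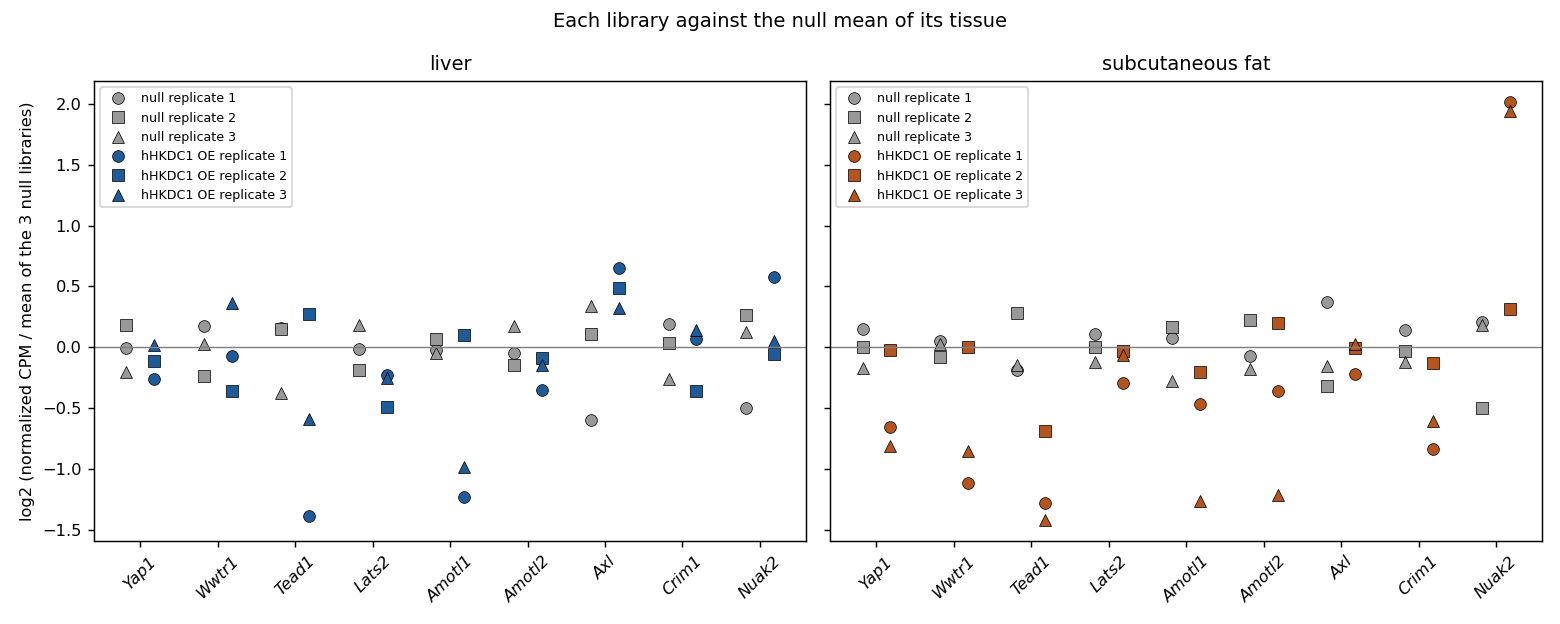
Log2 of each library's normalized CPM over the mean of the 3 null libraries of its tissue (vertical axis), for 9 genes in liver (left) and fat (right); grey marks null libraries, and circles, squares and triangles mark replicates 1, 2 and 3. In fat, replicate 2 of the hHKDC1 OE group (squares) sits among the null libraries for Yap1, Wwtr1 and Amotl2, and replicates 1 and 3 lie apart.

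Ankrd1 was low in fat as well: the null libraries held 26, 16 and 5 counts of it and the hHKDC1 OE libraries 25, 8 and 12 (log2 -0.28 ± 0.74, adjusted p = 0.851). The highest 3 counts (26, 25 and 16) were those of the 3 fat libraries with the most skeletal muscle transcripts, whose 6 markers summed to 17706 CPM and 21377 CPM in null replicates 1 and 2 and to 15757 CPM in hHKDC1 OE replicate 1. In the other fat libraries these markers summed to 559, 1110 and 2484 CPM, and their part in the Ankrd1 counts was not tested.

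Of the other Hippo pathway genes, 28 were tested in fat and 0 passed, with 21 of the 28 log2 fold changes negative. Amot, the third angiomotin gene, had 21.8, 27.2 and 12.1 CPM in null fat and 9.81, 8.65 and 10.1 CPM in hHKDC1 OE fat (log2 -1.10 ± 0.31, adjusted p = 0.159). Replicate 2 was here as low as the others. Taok3 (0.83 ± 0.24) and Stk4 (1.13 ± 0.38), upstream kinases of the cascade, had positive values, and Stk4 was at 104, 40.9 and 125 CPM in replicates 1, 2 and 3 against 38.3 to 44.3 CPM in null fat. Without hHKDC1 OE replicate 2, 2 of the 28 passed as higher, Stk4 (1.47, adjusted p = 0.00149) and Taok3 (1.02, adjusted p = 0.0108), and 4 as lower, among them Vgll3 (-2.06) and Wwc2 (-0.79), beside 11.4% of all genes higher and 7.53% lower in that fit, while Amot did not pass (-1.04, adjusted p = 0.0890). Of 14 other targets tested 0 passed. Rbms3 (-0.87 ± 0.33), Ctgf (-1.41 ± 0.58) and Ccdc80 (-0.64 ± 0.28) had the smallest p-values, and Ctgf, a secreted matricellular target, had 37.5, 32.7 and 24.8 CPM in null fat and 4.60, 23.9 and 7.25 CPM in hHKDC1 OE fat. Without replicate 2, 0 of the 14 passed as higher and 5 as lower, beside the same 11.4% and 7.53% of all genes: Ctgf (-2.43, adjusted p = 0.00325), Rbms3 (-1.34, adjusted p = 0.00759), Ccdc80 (-0.95), Arhgef17 (-0.69) and Cyr61 (adjusted p = 0.0356).

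The last comparison asked whether hHKDC1 OE differed from null to another extent in fat than in liver, with an interaction term fitted to the 12 libraries. None of the 10 genes passed, with a count of 0 in edgeR and in DESeq2, as did 0% of 17070 genes in each direction in edgeR (in DESeq2 2.35% higher and 0.527% lower). At an unadjusted p under 0.05 the count was 1, Nuak2, compared with 9% of all genes higher and 3.67% lower. The interaction of Nuak2 was 1.46 ± 0.57 on the log2 scale, with a 95% interval of 0.22 to 2.71 (adjusted p = 0.308). That of Yap1 was -0.27 (interval -0.87 to 0.34), that of Wwtr1 -0.51 (-1.33 to 0.32) and that of Tead1 -0.60 (-1.63 to 0.43). Without hHKDC1 OE fat replicate 2, Nuak2 (1.62, adjusted p = 0.0341) and Wwtr1 (-1.12, adjusted p = 0.0382) passed, beside 3.92% of all genes higher and 2.86% lower. Over all alternatives their adjusted p ranged from 0.0341 to 0.602 and from 0.0339 to 0.860. Among the other Hippo pathway genes 0 of 28 passed, and Fat4 (1.35 ± 0.37), Vgll4 (0.64 ± 0.19) and Amot (-1.21 ± 0.38) had the smallest p-values. Fat4 had only 7 to 23 counts in the liver libraries. Among the other targets 0 of 14 passed, and F3 (-1.10 ± 0.31), Fjx1 and Cyr61 had the smallest. Without hHKDC1 OE fat replicate 2, 1 of the 28 passed as higher (Stk4, 1.20) and 3 as lower, and 3 of the 14 targets passed as lower, Ctgf (-2.03), Cyr61 (-1.70) and F3 (-1.33).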

How the data were processed

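Counts per gene of the 12 libraries were deposited by the authors as whole, unnormalized numbers, made with STAR 2.5 and HTSeq 0.6.1 per the labels, which also name DESeq2. The FPKM deposited by the authors equalled the counts divided by gene length and by DESeq2 size factors to within 1% in 100% of 252371 values. Ensembl identifiers and positions were read as GRCm38 (98.3% of shared identifiers had the GENCODE vM21 position). Yap1 (1.25% of exonic bases) and Crim1 (2.05%) overlap a gene on the other strand, and the libraries were not strand-specific, so reads from the shared bases cannot be told apart. Columns of the authors' own comparisons (fold changes and p-values) were not used.

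The 4 comparisons were fitted on the counts over all genes that passed filterByExpr, with TMM scaling, edgeR 4.0.16's quasi-likelihood test and Benjamini-Hochberg adjustment, and called at 0.05. CPM were scaled by TMM within each tissue and are comparable within it only. Standard errors were the log2 fold change over the square root of F. Alternatives were DESeq2 1.42.0, limma 3.58.1 on log2(FPKM + 0.1) or log2(FPKM + 1), upper-quartile or library-size scaling, no filter, at least 10 counts in every library, 12 libraries in 1 fit, a replicate block, and leaving libraries out. On simulated counts with 200 genes changed by a log2 of 2, edgeR recovered 82% in liver (13351 genes), 65% in fat (16380), 85% between tissues (15259) and 55% in the interaction (17070). The simulation held no smaller change and no outlying library, so it does not tell how many smaller changes would be found.

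The 10 genes, the further lists, the markers and the tests were chosen with earlier results of these data known. All 10 genes were named in each comparison. Of each further list the 3 called genes with the largest log2 fold change were named, or, where fewer passed, those with the smallest p. One gene that this rule names is not reported here. The difference test without both number 2 hHKDC1 OE libraries was added after the data were seen.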

Additional observations from a re-analysis of the deposited data

Results flagged for a closer look

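F3, the tissue factor gene, had libraries on opposite sides of the null mean in the 2 tissues: all 3 hHKDC1 OE libraries were above it in liver (log2 0.96 ± 0.28) and all 3 below it in fat (-0.22 ± 0.18). The difference was -1.10 on the log2 scale in the interaction test of edgeR and did not pass (adjusted p = 0.175), but it passed without hHKDC1 OE fat replicate 2 (-1.33, adjusted p = 0.0341). Vgll4, a TEAD cofactor, was below the null mean in 3 of 3 hHKDC1 OE liver libraries and above it in 3 of 3 fat libraries, with a difference of 0.64 that did not pass either (adjusted p = 0.186). Tead2 (1.22, adjusted p = 0.431) and Mob1a, a LATS coactivator (0.58, adjusted p = 0.369), were likewise below the null mean in all 3 hHKDC1 OE liver libraries and above it in all 3 fat libraries, and did not pass. These were 4 of the 42 other pathway and target genes tested (9.52%), beside 8.42% of all 17070 genes, and 0 of the 10 genes. Groups of 3 libraries were not tested for single outlying libraries.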

How the results depend on the processing

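Of 657 refits of single genes, 600 kept the direction and side of the threshold, 15 kept the direction and passed it newly and 42 changed sign, of which 1 (Yap1 between null tissues by library size alone) also passed newly; none lost a call. The differences between null tissues kept 8 calls in all settings but library size alone, which called 9. The number called in liver was 0 under every alternative. In fat it was 2 with DESeq2, 1 without a filter (Tead1), 1 with 12 libraries in 1 fit (Nuak2) and 2 without the libraries described as knockouts (Wwtr1 and Nuak2), and 0 to 5 when 1 library was left out, with 5 without hHKDC1 OE replicate 2 only. In the interaction it was 0 to 2 when 1 library was left out, with 2 without that same library, and 2 without the number 2 hHKDC1 OE libraries of both tissues, an alternative chosen after seeing the data. Without the libraries described as knockouts 1 hHKDC1 OE library a tissue remained against 3 null libraries, so the null libraries alone set the spread and the lone library was assumed to vary like them. The cause was not tested.

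Over all genes the main count was 0 in liver, fat and the interaction. It was 94, 1446 and 497 with DESeq2, 327, 803 and 479 without a filter, and 76, 1024 and 126 without the libraries described as knockouts. It was 876 in fat with 12 libraries in 1 fit, 146 in liver without hHKDC1 OE replicate 2, and 3251 in fat and 1211 in the interaction without the fat hHKDC1 OE replicate 2 (1183 without both number 2 libraries). Leaving out 1 other library gave 0 to 2. It was 2 in liver by library size alone, and 5 and 3 in liver and 0 and 1 in fat with limma at pseudocounts of 0.1 and 1.

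Sign changes were seen only in genes that had not passed. In liver Crim1 was 0.028 by library size alone and 0.068 without the libraries described as knockouts, and -0.15 to 0.11 with 1 library left out. Wwtr1 was -0.011 with 12 libraries in 1 fit, -0.043 and -0.035 with limma at pseudocounts of 0.1 and 1 and -0.073 without the libraries described as knockouts, and -0.21 to 0.17 with 1 library left out, and Nuak2 was -0.00066 to 0.38. In fat Axl was 0.093 and Lats2 0.033 by library size alone. Ankrd1 was 0.32 without the libraries described as knockouts. With 1 library left out Ankrd1 was -0.76 to 0.27 and Axl -0.23 to 0.13. Between null tissues Yap1 was 0.036 with upper-quartile scaling, 0.019 with at least 10 counts and 0.76 by library size alone, where it passed. In the interaction Amotl1 was -0.0010 with DESeq2, -0.030 and -0.32 with limma at 0.1 and 1, and -0.36 to 0.58 with 1 library left out. Ankrd1 was 0.0025 by library size alone, 0.71 without the libraries described as knockouts, 0.76 without both number 2 libraries and -0.64 to 0.44 with 1 left out. Amotl2 was 0.054 and Tead1 0.17 without the libraries described as knockouts, and Amotl2 -0.66 to 0.082 with 1 left out.

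Replicate numbers were not taken to pair the libraries, because not every same-numbered pair was over 0.1: same-numbered null and hHKDC1 OE libraries had deviations correlated at 0.224, 0.187 and 0.094 in liver and -0.131, -0.009 and 0.006 in fat. In liver all 3 lay above the differently numbered pairs, which were at -0.215 to 0.080, a hint from the data and not from the design. Between liver and fat the values were 0.320, 0.062 and 0.179 in the null group and 0.022, 0.093 and 0.064 in the hHKDC1 OE group. Whether same-numbered liver and fat libraries came from 1 mouse is not given in the sources used here. With a replicate block the number of the 10 genes called was 0 in liver, 0 in fat, 8 between tissues and 0 in the interaction, Wwtr1 was -0.010 in liver and Ankrd1 0.15 in the interaction, and 17, 168, 9938 and 4 of all genes were called.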
